A study of Homo sapiens with 2 samples.

Results

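The intervals described here are the 6368 widest stretches of nascent DNA in U2OS cells, each 3000 bp or more from its lowest start to its highest end. They were chosen by their width alone, out of 161770 named intervals on chromosomes 1 to 22 and X, and so made up 3.94% of the intervals. Together they spanned 29.4 Mb, or 20.6% of all interval bases. They are compared with the 76919 intervals of 300 to 1000 bp, which cover the middle of the width range. Width is the value that selected them and is given below as a description only.

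U2OS is an osteosarcoma cell line. Its cells, labelled wild type, were arrested before S phase by blocking them with thymidine in 2 rounds, then released and collected 2 hours later, and their nascent strands were freed of other DNA by size selection and exonuclease. Both libraries had this same treatment, no other condition was analysed here, and the labels do not say whether they came from separate cultures. The authors' lists give the peak regions of both libraries as 1 set, sorted into 6 replication timing classes.

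A replication origin is a place where the double helix is first opened and copied in both directions, and the short strands made there mark it. In mammalian cells origins can be focused sites or broad zones of several kilobases, in which any of many sites may fire in a given cell. Early replicating, gene-rich chromatin is known to hold origins closely packed, and late replicating chromatin to hold them sparsely.

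Because both libraries enter as 1 set, every error below is a spread over chromosomes and not between biological replicates. The tests ask whether a difference recurs from chromosome to chromosome within that set. The read depth behind each interval is unknown, so no interval for counting error in the peaks can be given. Positions are in hg19, and the sequence and the genes at these positions were not analysed here.

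Broad intervals had a median width of 3992.5 bp. The quartiles were 3387.75 and 5133.25 bp, and the widest interval measured 32112 bp. Most lay close to the limit: 3203 were under 4000 bp wide, 1439 were from 4000 to under 5000 bp, 1263 from 5000 to under 7500 bp, 317 from 7500 to under 10000 bp and 146 were 10000 bp or more. The limit does not fall at a natural break. The 460 intervals that exceeded 3000 bp by less than 100 bp or equalled it had a median fold enrichment of 7.02 and 73.7% of them were in the 3 earlier timing classes, while the 539 intervals from 2900 to under 3000 bp had 7.07 and 76.8%.

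The 10 widest intervals were zones of 17.6 to 32.1 kb, and in 9 of them the bases shared by both libraries belonged to a single replicate 1 peak. Of the 10, 5 were mid late, 3 mid early, 1 early and 1 very late. The widest of all, on chromosome 8 from 145718006 to 145750117, was mid late, had a fold enrichment of 10.1 and lay 0.544 Mb from the last interval of the long arm. Another mid late zone on the same arm, from 144946447 to 144967286, was 20.8 kb wide and had 12.1-fold enrichment. The widest mid early interval lay far from any end, on chromosome 3 from 48672771 to 48695776, spanned 23006 bp and had 11.7-fold enrichment. Chromosome 22 held a mid late zone of 20.1 kb from 50893140 to 50913221 near its long-arm end (8.57-fold), and another of 18.8 kb from 19957716 to 19976493 (8.23-fold). The widest early interval, 19.1 kb at 12.3-fold, was on chromosome 9 from 139900903 to 139920040. Mid early zones of 18.1 kb on chromosome 17 from 80004012 to 80022087 (8.62-fold) and of 17.9 kb on chromosome 2 from 72360703 to 72378552 (9.34-fold) followed.

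The narrowest members of the 10 came from chromosomes 19 and 8. On chromosome 19 from 36782959 to 36800709, a mid late interval of 17.8 kb had the lowest fold of the 10, 3.81, was cut into 17 pieces and was covered by peaks of both libraries over only 33.5% of its length. The very late interval of 17.6 kb on chromosome 8 from 47084815 to 47102425, beside the centromere, had 8.50-fold enrichment and shared bases of 72.7%. The other classes reached smaller maxima. The widest very early interval was 12.2 kb, on chromosome 17 from 48276700 to 48288927 at 12.7-fold, and the widest late one was 14.3 kb, on chromosome 8 from 47009646 to 47023941 at 6.07-fold.

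Broad intervals were most often mid early, and compared with 300 to 1000 bp intervals they were less often very early, late or very late. Mid early intervals numbered 2363 of the 6368 (37.1%), early ones 1708 (26.8%) and mid late ones 1422 (22.3%). Very early intervals numbered 656 (10.3%), late ones 175 (2.75%) and very late ones 44 (0.691%). The choice by width did not use the timing class, so the class was tested. How the classes were made is not known, so their independence of the width is assumed. For each class the share among broad intervals on a chromosome was set against the share among 300 to 1000 bp intervals on it. The 23 paired differences were tested by random sign flips, a permutation test run on both sides, and p was adjusted over 7 tests by the Benjamini-Hochberg method.

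The mid early share was 36.7 ± 8.26% among broad intervals and 29.1 ± 3.64% among 300 to 1000 bp intervals (mean ± SD, n = 23 chromosomes). The mean difference was 7.62 points, with a positive sign on 20 of 23 chromosomes (adjusted p = 7.0e-05, permutation test). It was largest on chromosome 6, where 64.3% of 98 broad intervals were mid early against 30.1%, and without that chromosome it was 6.41 points. The exceptions were chromosomes 4, 12 and 13.

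Very early intervals were under-represented among broad ones. They made up 8.71 ± 5.48% of broad intervals and 13.7 ± 5.03% of 300 to 1000 bp intervals, a difference of −4.94 points that was negative on 22 of 23 chromosomes (permutation test, adjusted p = 7.0e-05, from an unadjusted p of 1e-05, the smallest that the resampling can give). Chromosome 5 was the exception. Chromosome 8 showed the largest deficit, with 3.6% against 17.7%. In the deposited lists 21763 names stood on 2 lines, which were joined here. With every line counted the very early difference was −7.84 points. The 628 broad intervals on 2 lines were all very early, out of 656 in that class, so that setting counts most of the class again and is no separate estimate.

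The latest classes were also scarcer over whole chromosomes. All cells were collected 2 hours after release, so these classes were not seen at any later time. Late intervals made up 3.35 ± 3.56% of broad and 6.21 ± 3.02% of 300 to 1000 bp intervals (−2.86 points, lower on 20 of 23 chromosomes, adjusted p = 3.27e-04 by the permutation test). Very late intervals made up 0.877 ± 1.2% and 2.28 ± 1.32% (−1.40 points, lower on 19 of 23, adjusted p = 0.00122 by the permutation test). The early class (−1.74 points, negative on 14 of 23, adjusted p = 0.191) and the mid late class (3.32 points, positive on 16 of 23, adjusted p = 0.159) did not pass the permutation test. Set against intervals from 1000 to under 3000 bp instead, the 4 differences that passed kept their sign and passed, but were smaller: 3.90 points for mid early, −3.04 for very early, −1.49 for late and −0.641 for very late (adjusted p from 7.0e-05 to 0.0410, permutation tests). The 3 earlier classes counted as 1 did not differ past the threshold either, at 68.3 ± 16.5% and 67.4 ± 9.68% (0.940 points, positive on 15 of 23, adjusted p = 0.658 by the permutation test). All these means count each chromosome alike, whatever its number of intervals. Pooled over chromosomes, 26.8% of broad and 26.1% of 300 to 1000 bp intervals were early, and 22.3% and 22.5% were mid late. Both pooled differences have the opposite sign to the chromosome means, while those of the 4 classes that passed keep theirs.

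**Figure D1:**
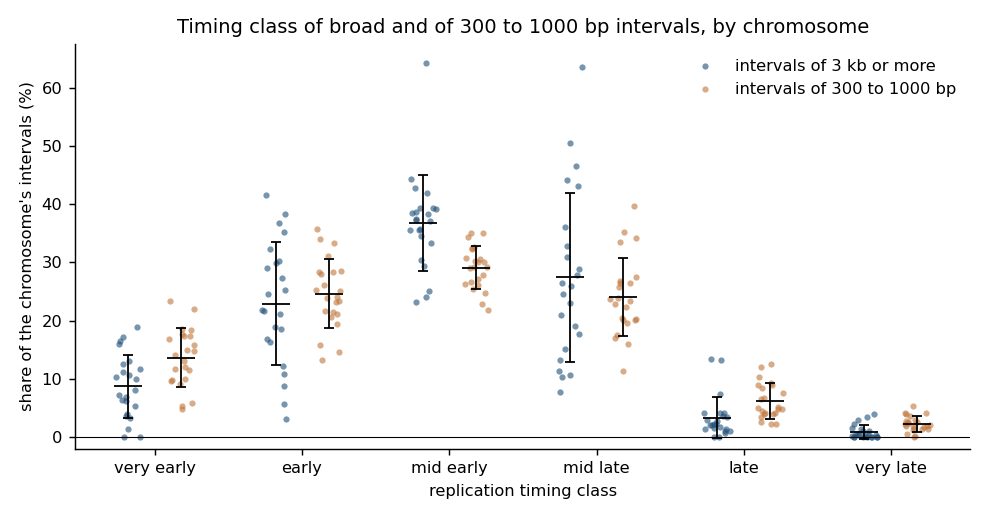
Share of each chromosome's broad intervals (3 kb or more, blue) and of its 300 to 1000 bp intervals (orange) in each replication timing class, in percent; each point is 1 of 23 chromosomes, and the black bars give the mean ± SD. The mid early points of broad intervals sit higher (mean 36.7% against 29.1%), and the very early points lower (8.71% against 13.7%).

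Read the other way, the chance that an interval is broad changed with its class in the shape of a hump. Of very early intervals 2.84% were 3 kb or more wide (exact 95% binomial interval 2.63% to 3.06%), of early ones 4.08% (3.89% to 4.27%) and of mid early ones 4.90% (4.71% to 5.10%). The share was 3.94% among mid late intervals (3.74% to 4.15%), 1.94% among late ones (1.67% to 2.25%) and 1.26% among very late ones (0.918% to 1.69%). These intervals cover counting error only and treat neighbours as independent. The mid early class had the highest share on 11 of 23 chromosomes, the mid late class on 8, the early class on 2 and the very late class on 2.

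Broad intervals gathered towards the ends of chromosomes. Within 1 Mb of the first or last interval of a chromosome 8.27% of all intervals were broad (505 of 6105). Between 1 and 2 Mb the share was 10.2%, between 2 and 5 Mb 6.13%, and between 5 and 10 Mb 3.62%. It was 2.67% between 10 and 20 Mb and 3.18% farther in. Of all broad intervals 35.1% lay within 5 Mb of such an end, against 17.4% of 300 to 1000 bp intervals, and of the 146 intervals of 10 kb or more 91 (62.3%) did. On chromosomes 13, 14, 15, 21 and 22, whose short arms carry repeats, the first interval lies 9.43 to 20.1 Mb into the chromosome and marks no chromosome end. The shares by distance above still count it as an end, as do the zones within 5 Mb of an end below. The tests of each arm end do not.

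**Figure D2:**
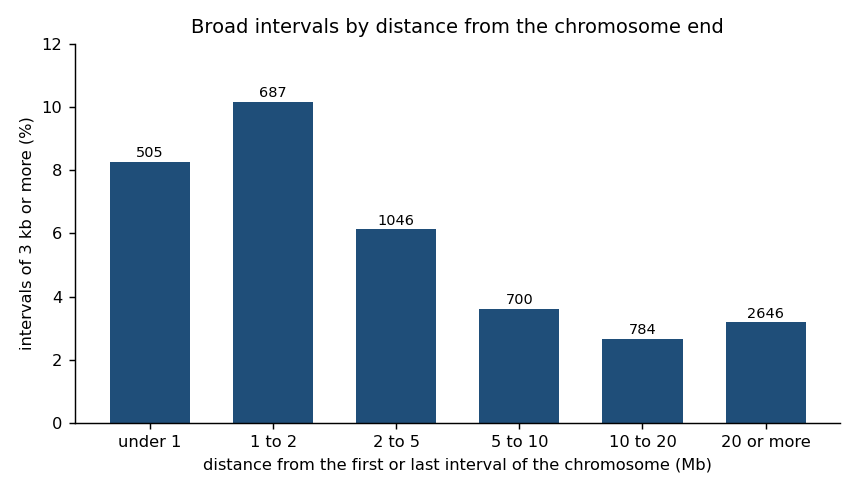
Percentage of all intervals that are 3 kb or more wide, by distance from the first or last interval of the chromosome in Mb; the number over each bar is the count of broad intervals. The bars are highest within 2 Mb of such an interval (8.27% and 10.2%) and lowest from 10 to 20 Mb (2.67%).

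At the long-arm end the difference passed a test that was chosen after the data were examined. The last 5 Mb of a chromosome held 30.05 ± 28.7% of its broad intervals and 13.7 ± 11.9% of its 300 to 1000 bp intervals (mean ± SD, n = 23 chromosomes), a difference of 16.4 points, positive on 16 of 23 chromosomes (adjusted p = 9.80e-04 over 2 permutation tests of the same kind). The difference was 9.98 points against intervals from 1000 to under 3000 bp (adjusted p = 0.00188, permutation test) and 9.60 points among intervals with at least 20 others within 50 kb (adjusted p = 0.0188). Chromosomes differed greatly. On chromosome 13, 32 of 33 broad intervals lay there, on chromosome 8 201 of 278, on chromosome X 42 of 68 and on chromosome 9 178 of 332. On chromosome 1 it was 4 of 646, on chromosome 11 5 of 498 and on chromosome 7 3 of 290. Those 3 chromosomes held more at the other end, with 109, 109 and 114 broad intervals in the first 5 Mb. Over the 18 chromosomes whose short-arm end could be measured, the first 5 Mb held 14.4 ± 16.6% of broad and 7.49 ± 4.79% of 300 to 1000 bp intervals (6.94 points, positive on 9 of 18, adjusted p = 0.0307 by the permutation test). Leaving out chromosome 1, 4, 5, 7, 11 or 16 ended the short-arm call, with adjusted p from 0.0523 to 0.0646 (permutation tests).

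The timing of broad intervals differed between the ends and the rest of the chromosome. An end is here the first or last interval of any chromosome, also where it marks no true end. Within 5 Mb of an end 37.1% of broad intervals were mid late and 58.1% were in the 3 earlier classes. Elsewhere 14.3% were mid late and 83.0% were in the 3 earlier classes. Among 300 to 1000 bp intervals the mid late share was 33.5% near the ends and 20.2% elsewhere. With the ends removed, the share of the 3 earlier classes was 7.58 points higher among broad than among 300 to 1000 bp intervals (permutation test over 21 chromosomes, adjusted p = 0.00199) and the mid late share was 4.94 points lower (adjusted p = 0.00835), the reverse of its sign over whole chromosomes. In the same setting the deficits of the very early class (−2.14 points, adjusted p = 0.153) and of the very late class (−0.705 points, adjusted p = 0.365, permutation tests) no longer passed. The mid early excess (7.32 points, adjusted p = 0.00199) and the late deficit (−1.93 points, adjusted p = 0.0352, permutation tests) still passed.

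The widest intervals carried this furthest. Of 91 intervals of 10 kb or more near an end, 43 were mid late, 35 mid early, 8 early, 4 late and 1 very early. Of the 55 elsewhere, 6 were mid late, 24 mid early, 17 early, 4 very early, 2 late and 2 very late. By width, the mid late share went from 20.3% below 4000 bp to 33.6% at 10 kb or more, and the very early share from 11.6% to 3.42%. The share within 5 Mb of an end went from 31.5% to 62.3% over the same bins. Position and width were not separated in these bins.

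Chromosomes differed in how many of their intervals were broad. Chromosome 22 had the highest share, 6.28% (413 of 6579). Chromosomes 17 (6.08%) and 19 (5.94%), both known as gene-rich, came next, and then 16 (5.48%) and 11 (5.36%). Chromosome 18 had the lowest share, 1.37% (43 of 3133), then 13 (1.62%), 6 (1.69%), 5 (2.09%) and 4 (2.11%). The mean over chromosomes was 3.68 ± 1.47% (SD, n = 23). The median width of the broad intervals varied far less, with chromosome 18 lowest at 3475 bp and chromosome 8 highest at 4630 bp.

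**Figure D3:**
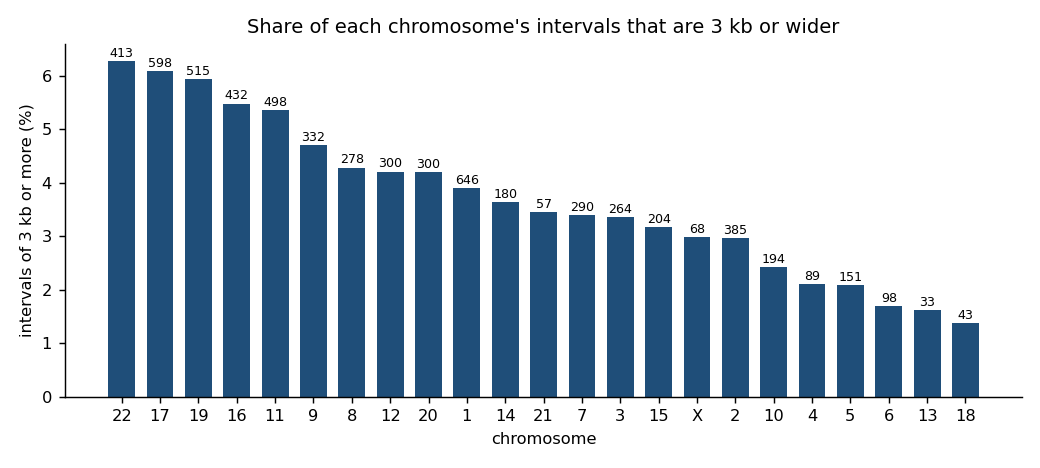
Percentage of each chromosome's intervals that are 3 kb or more wide, in falling order, with the count of broad intervals over each bar. Chromosomes 22, 17 and 19 lead with 6.28%, 6.08% and 5.94%, and chromosome 18 is lowest with 1.37%.

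The broad intervals of a chromosome were concentrated in few places. Of the 2842 windows of 1 Mb that held any interval, 825 (29.03%) held a broad one, and 77 windows with 20 or more held 2343 of them (36.8%). The share of all intervals in those 77 windows was not taken. Whether broad intervals were more concentrated over them than intervals in general was therefore not tested. The fullest window, on chromosome 8 from 143000001 to 144000000, held 62 broad intervals among 246 (25.2%, against 3.94% of all intervals). The 62 spanned 329 kb. Of these 25 were mid late, 22 late, 14 mid early and 1 early. The next, on chromosome 9 from 139000001 to 140000000, held 57 among 230 (24.8%), and the 57 spanned 315 kb. Of them 25 were mid early, 20 mid late and 12 early. The classes of all intervals in these windows were not compared. Windows on chromosome 8 from 144000001, chromosome 20 from 61000001 and chromosome 17 from 79000001 held 50 each, among 222, 246 and 261 intervals in that order. On chromosome 6, chosen for its mid early share, 79 of 98 broad intervals lay between 33 and 45 Mb, and 60 of those 79 were mid early. The stretch held 1787 of the 5796 intervals of all widths on the chromosome, whose classes there were not compared.

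Broad intervals often stood next to each other. The immediate neighbours of a broad interval were themselves broad in 14.7% of 12736 cases, against 3.06% for neighbours of 300 to 1000 bp intervals, and their median width was 1043 bp against 539 bp. With members joined where less than 10 kb lay between them, 3473 (54.5%) stood in 1221 chains of 2 or more, and 122 chains had 5 or more. Of these 1221 chains, 1014 kept to a single timing class. Adjacent intervals mostly share a class: both neighbours had the interval's own class for 86.4% of broad and 79.3% of 300 to 1000 bp intervals. Chains were not formed for other intervals.

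The longest chain had 15 broad intervals, all mid early, on chromosome 16 from 1024450 to 1154002. Its members were 3050 to 9817 bp wide, filled 58.2% of 130 kb and had folds of 5.67 to 12.9. A chain of 12 on chromosome 8 from 142350919 to 142462541 was mid early and mid late. One of 11 on chromosome 7 from 2509702 to 2584721 was early and mid early and filled 78.5% of its span. A further chain of 11, on chromosome 12 from 57566465 to 57637192, filled 79.6% of 70.7 kb. The late class had a chain of its own, with 10 members on chromosome 1 from 2359918 to 2443454 that filled 83.3% of the span.

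In every timing class broad intervals had closer neighbours than 300 to 1000 bp intervals of that class. Spacing, like fold and pieces below, comes from the same peak calls as the width and is described without a test. The distance from a broad interval to its nearer neighbour had a median of 635 ± 54.0 bp on a chromosome, against 1659 ± 529 bp for 300 to 1000 bp intervals (mean ± SD of medians, n = 23 chromosomes). It was shorter on all 23 chromosomes, with a geometric mean ratio of 0.399. By class the medians of broad intervals were close to each other, from 575 bp in the mid late class to 711 bp in the very early class. Those of 300 to 1000 bp intervals went from 1252 bp in the mid early class to 3789 bp in the very late class. Intervals of 300 to 1000 bp thus lay 2.00 times as far from a neighbour as broad ones in the mid early class and 6.33 times as far in the very late class. Of broad intervals 71.5% had a neighbour within 1 kb, against 39.4%. None lay within 100 kb of 4 of the 6368 broad intervals, against 880 of the 76919 intervals of 300 to 1000 bp.

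**Figure D4:**
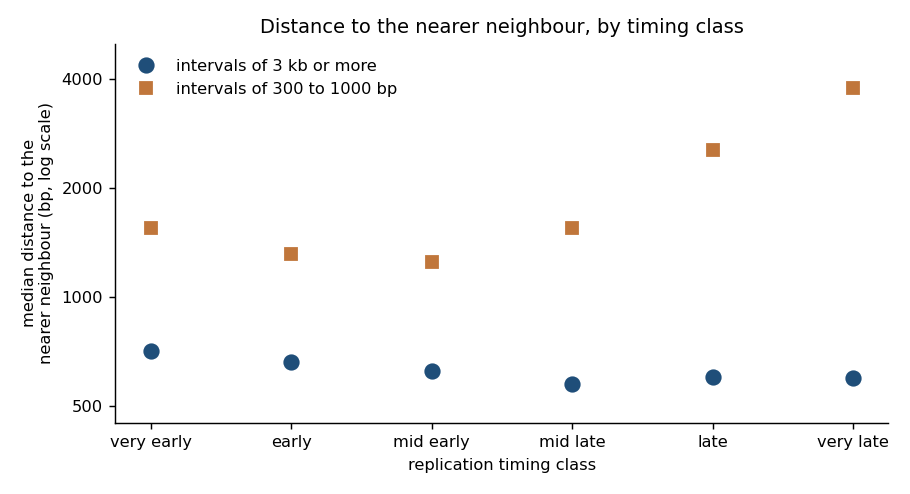
Median distance from an interval to its nearer neighbour, in bp on a log scale, for broad intervals (3 kb or more, blue circles) and intervals of 300 to 1000 bp (orange squares) in each timing class; no error bars are drawn. The blue circles stay between 575 and 711 bp, while the orange squares reach 3789 bp in the very late class.

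The number of other intervals within 50 kb of either edge leaves the interval's own width out. It was 24.6 ± 1.90 for broad intervals and 14.96 ± 4.77 for 300 to 1000 bp intervals (mean ± SD of chromosome medians, n = 23). Unlike the distance to the nearer neighbour, it differed among the classes of broad intervals, with medians of 23 to 26 in the 4 classes from very early to mid late, 22 in the late class and 15 in the very late class. The medians of 300 to 1000 bp intervals were 9 in the late class and 7 in the very late class. Where 0 to 9 others lay within that distance, 203 of 47170 intervals (0.430%) were broad, and the share stayed between 0.321% and 0.676% in the 6 classes. Where 20 to 29 others did, 6.70% were broad: 5.29% of very early, 6.18% of early, 7.33% of mid early, 7.74% of mid late, 4.62% of late and 2.93% of very late intervals.

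Among intervals with at least 20 others around them the class contrast changed, in a setting chosen after the data were examined. The mid early excess was 3.03 points and did not pass (permutation test, adjusted p = 0.106), and the mid late excess was 5.85 points and did (adjusted p = 0.00441). The late and very late deficits did not pass there (−1.33 and −0.620 points, adjusted p = 0.0636 and 0.106, permutation tests). Broad intervals were also less often early there (−4.08 points, permutation test, adjusted p = 0.00460). Very early intervals were scarcer among broad ones in this setting too (−2.85 points, adjusted p = 3.50e-04, permutation test). With fewer than 20 others, the mid early excess was 7.604 points and passed (adjusted p = 0.0176, permutation test), while the late and very late deficits did not pass (−1.66 and −1.17 points, adjusted p = 0.0814 and 0.0685). In that setting the 3 earlier classes together were 7.71 points more frequent among broad intervals (adjusted p = 0.0251), and the mid late class was less frequent by −4.88 points (adjusted p = 0.0388, permutation tests over 20 chromosomes).

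Broad intervals belonged to stronger peaks. The fold enrichment deposited by the authors, 1 value per replicate 1 peak, had a median of 7.82 in broad intervals, with quartiles of 6.30 and 10.0, and of 4.55 in 300 to 1000 bp intervals, with quartiles of 3.71 and 5.997. On a chromosome the medians were 7.74 ± 0.453 and 4.54 ± 0.0972 (mean ± SD, n = 23 chromosomes), higher in broad intervals on all 23, with a geometric mean ratio of 1.70. Only 39 broad intervals (0.612%) were below 4-fold, against 34.5% of 300 to 1000 bp intervals. Within the broad intervals the median went from 7.36 below 4000 bp to 9.78 at 10 kb or more. The ratio was 1.28 once peaks with a −log10 q under 5 were left out.

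The ratio of the folds was smaller in the late and very late classes. Broad intervals of the very early, early, mid early and mid late classes had median folds of 7.602, 7.95, 7.91 and 7.84, which was 1.69 to 1.73 times that of 300 to 1000 bp intervals of the same class. Late broad intervals had 6.44 (1.47 times) and very late ones 5.34 (1.22 times). The difference between classes in this ratio was not tested.

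The strongest broad intervals were not the widest. Of broad intervals 127 (1.99%) had a fold of 20 or more, against 601 (0.781%) of 300 to 1000 bp intervals. The 3 highest folds were all in early intervals of under 5 kb. Chromosome 20 from 62465674 to 62469444 had 144-fold enrichment over 3771 bp, chromosome 1 from 228400344 to 228404898 had 91.1-fold over 4555 bp and chromosome 7 from 334155 to 337985 had 81.0-fold over 3831 bp. The 10 widest intervals, by contrast, had folds of 3.81 to 12.3.

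**Figure D5:**
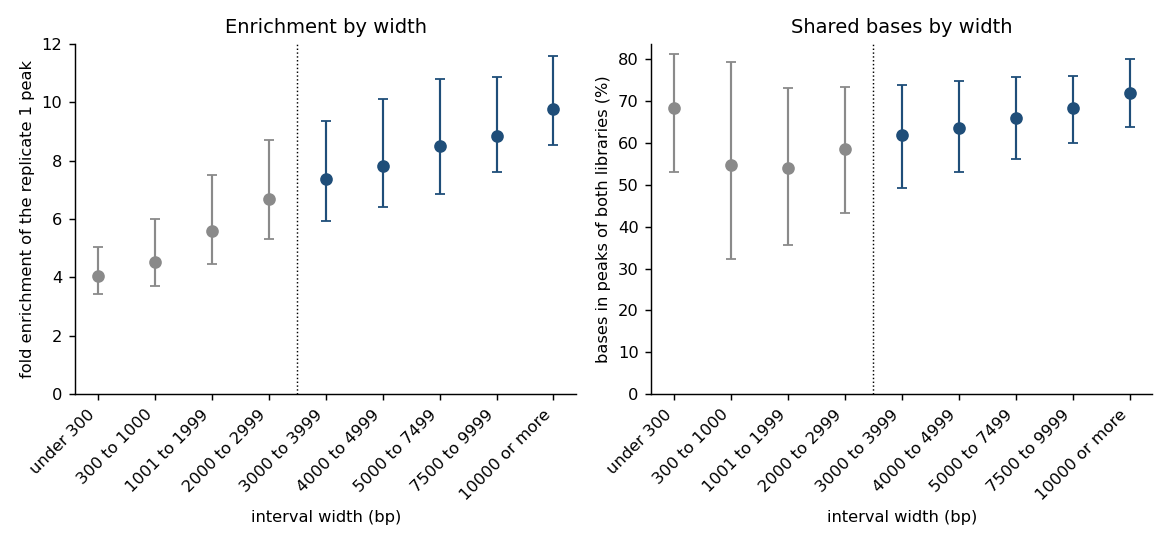
Median (points) and quartiles (bars) of the fold enrichment of the replicate 1 peak, left, and of the percentage of interval bases covered by peaks of both libraries, right, in 9 bins of interval width in bp; blue bins, right of the dotted line, are the broad intervals. Within the broad intervals the median fold goes from 7.36 to 9.78 and the shared bases from 62.0% to 72.0%.

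Few broad intervals were broad without interruption in both libraries. Their shared bases usually belonged to a single replicate 1 peak: this held for 6121 (96.1%), while 242 had bases of 2 such peaks and 5 of 3. Peaks without shared bases were not counted, and how far a replicate 1 peak extends was not read. The shared bases themselves were divided. A broad interval held a median of 3 shared pieces, and 5888 (92.5%) held 2 or more, against 3.16% of 300 to 1000 bp intervals. Wider intervals have more room for pieces, so this contrast follows at least in part from the width rule. Per kb the direction was the opposite, with medians of 0.653 pieces in broad and 1.88 in 300 to 1000 bp intervals. That measure depends on width too, since 1 piece weighs more in a short interval. A single shared piece of 3000 bp or more was found in 771 broad intervals (12.1%), and 2349 (36.9%) had 3000 or more shared bases in all. The median longest piece measured 1585 bp.

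By coverage the libraries overlapped more in broad intervals than in 300 to 1000 bp ones. Peaks of both libraries covered a median of 63.1 ± 3.31% of a broad interval and 54.6 ± 1.93% of a 300 to 1000 bp interval (mean ± SD of chromosome medians, n = 23), higher on 22 of 23 chromosomes, with chromosome 21 the exception. The median went up with width within the broad intervals, from 62.0% below 4000 bp to 72.0% at 10 kb or more. It was 68.4% in intervals under 300 bp, so it was lowest at intermediate widths.

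The unbroken and the least shared members differed in strength. The 480 broad intervals with 1 piece had a median fold of 8.95 and shared bases of 88.0%, with a median width of 3469.5 bp. The 48 intervals with under 20% shared bases had a median fold of 4.74, and 16.7% of them were late or very late. The 252 with 90% or more shared had 10.4-fold, and 1.19% were late or very late. The 771 with a shared piece of 3000 bp or more had 10.2-fold, were 38.7% mid early and 9.47% very early, and so had a class makeup close to that of all broad intervals (37.1% and 10.3%).

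A small group was wide, much divided and weakly enriched. On chromosome 19, known for clusters of zinc finger genes, 6 broad intervals between 36 and 38 Mb had folds under 5. They were picked out after their values were seen. All 25 broad intervals of that stretch had a median fold of 8.77, up to 29.1, and median shared bases of 65.3%, so these 6 do not stand for the stretch. They stood in 2 tight runs, 3 mid late intervals from 36759637 to 36800709 and 3 late ones from 37765282 to 37795002. Their widths were 6618 to 17751 bp, their folds 3.496 to 4.61, their pieces 6 to 17 and their shared bases 19.5% to 39.7%. The 3 broad intervals with most pieces of all include 2 of these, with 17 and 15 pieces. The remaining one is the chromosome 3 zone with 15, which had 67.5% shared bases.

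Late and very late broad intervals were few in these cells, collected 2 hours after release. The 175 late ones lay on 21 chromosomes. They were 37 of 816 late intervals on chromosome 8 (4.53%), 27 of 722 on chromosome 1 (3.74%) and 15 of 333 on chromosome 22 (4.50%). Over all chromosomes 1.94% of late intervals were broad. The 44 very late ones lay on 15 chromosomes. They were 11 of 175 very late intervals on chromosome 8 (6.29%) and 6 of 132 on chromosome 15 (4.55%), against 1.26% over all chromosomes. Between 46 and 48 Mb on chromosome 8, a stretch picked out after its values were seen, all 19 broad intervals were late (9) or very late (10), with a median width of 5487 bp, folds of 3.76 to 8.50 and shared bases of 47.2%. The stretch held 87 intervals of all widths, whose classes there were not compared. Late and very late broad intervals had median shared bases of 57.3% and 56.6%, below the 63.6% to 65.3% of the other 4 classes.

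Broad intervals lay less often beside a change of timing class. Of broad intervals 867 (13.6%) had a neighbour of another class on at least 1 side, against 20.7% of 300 to 1000 bp intervals. Their neighbours were also closer, and this share was not compared at like distance.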

How the data were processed

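Nascent strand DNA of 2 libraries was analysed from 1 list of peaks and 6 lists of timing intervals. Per the submitters' processing notes, BWA, MACS2 and build hg19 were used, without versions. As deposited, the fold ratio and the −log10 of the q-value describe peaks of replicate 1, whose library name the peak names carry. The deposited score columns follow the q or are constant and were not used. How the timing classes were made, like the read depth, was not given in any source used here.

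Lines with the same name were joined from lowest start to highest end (628 broad intervals stood on 2 lines, all very early). Each interval took the fold of the replicate 1 peak sharing most bases, at least 1 bp; every broad interval and all but 104 of 300 to 1000 bp had one. A piece is a stretch in the peaks of both libraries. Distances run from edge to edge on listed intervals, and chromosome ends are the first and last listed intervals. Tests flipped the signs of the differences of chromosomes with at least 20 intervals in both groups, two-sided, with 100000 resamples and Benjamini-Hochberg adjustment. The mid early test was checked on simulated data with classes shuffled within chromosomes, which does not keep the likeness of neighbours. The tests of the other classes and of the ends were not checked in this way. Alternatives are given in the closing section. The intervals, limits and comparisons were chosen with earlier results of these data known. Regions named are the 10 widest, the widest of each class, the 3 of highest fold, the 3 with most pieces and the longest chains; others are said to be chosen afterwards. Python 3.11.15, numpy 2.4.6, pandas 2.3.3 and matplotlib 3.10.9 were used.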

Additional observations from a re-analysis of the deposited data

How the results depend on the processing

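Leaving out each chromosome in turn kept the mid early, very early, late and very late differences past the threshold in all 23 runs each, and the long-arm end difference in all 23 (14.3 to 17.4 points), but other settings moved these values more. No paired analysis was possible because both libraries enter as 1 set, and for the same reason there is no value without a single library. Distances were not computed with every line counted, since repeated lines overlap. Base composition and gene position were not run. The cause of each change below was not tested.

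Without the first and last 5 Mb, the very early difference was −2.14 points, the very late one −0.705 (both no longer past the threshold), the early one 2.40 (reversed), the mid late one −4.94 (reversed) and that of the 3 earlier classes 7.58. The mid early difference (7.32) and the late one (−1.93) still passed in that setting. With at least 20 others within 50 kb, the differences were −3.91 points for the 3 earlier classes (reversed), −4.08 for early, 3.03 for mid early, 5.85 for mid late, −1.33 for late and −0.620 for very late. The mid early, late and very late calls were lost there, and the long-arm end difference passed at 9.60. With fewer than 20 they were 7.71, 3.40 (early, reversed), −4.88 (mid late, reversed), −1.66 (late) and −1.17 (very late), the last 2 no longer past the threshold, the mid early difference passed at 7.604, and the short-arm end difference was 4.198 points and did not pass. Against intervals from 1000 to under 3000 bp the 3 earlier classes gave −1.38 (reversed), early −2.24 and mid late 3.51, the last 2 now past the threshold. The calls that held there were smaller (mid early 3.90, very early −3.04, late −1.49, very late −0.641, long-arm end 9.98, short-arm end 4.45), and the fold ratio was 1.34 and the distance ratio 0.689. The 3 earlier classes also reversed with every line counted (−0.619, with very early at −7.84) and at a −log10 q of at least 5 (−0.0125), where the fold ratio was 1.28. Counting every line counts the 628 very early broad intervals that stood on 2 lines again. With members of 3000 or more shared bases the fold ratio was 2.00 and the short-arm difference 6.41 (not past the threshold). With members of 2000 and of 5000 bp or more the fold ratio was 1.56 and 1.92, and 80.9% and 98.7% of members had 2 or more pieces. Among all intervals under 3000 bp 11.8% had 2 or more pieces, and among those from 1000 bp up 44.1%.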
